A study of Mus musculus with 12 samples.

Results

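The genes described here are 39 members of the integrated stress response and the unfolded protein response, followed in mouse proximal tubule (PT) cells with and without the TGF-β receptor TβRII. They were chosen by name from what is known of these pathways, with earlier results of these data already known, and are 39 of 25514 genes in the counts. They fall into 17 genes of the Atf4 arm, 5 sensors with the factors they activate, and 17 genes of the chaperone arm that Atf6 and Xbp1 drive. All 39 passed the filter on low counts, so none was left out of the tests, which covered 12971 genes. Counts had been made per transcript, and each gene is represented by the transcript that gathered the most counts in all libraries together.

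RNA was sequenced from 12 libraries of conditionally immortalized PT cells, 3 in each of 4 groups. TβRIIflox/flox PT cells (genotype H2ts6;Tgfbr2fl/fl) were either untreated in normal culture medium or given H2O2 for 24 h in serum-free medium, and TβRII-/- PT cells (H2ts6;Tgfbr2-/-) were handled in the same way. All groups share an origin in male mice that carried floxed Tgfbr2 and the Immorto-mouse transgene, a T antigen that works at the lower temperature, and all were expanded at 33 °C with interferon γ in medium with 2.5% fetal bovine serum and moved to 37 °C for 5 days before use. TβRII-/- PT cells came from TβRIIflox/flox PT cells by adenoviral Cre in culture, so each genotype is 1 cell line, and the effect of losing TβRII and any unrelated change between these lines cannot be told apart. The labels give the H2O2 dose as 200 mM and the study's methods in μM, and H2O2 and withdrawal of serum cannot be told apart because untreated cells kept their serum. The study's methods say of its in vitro work in general that independent experiments or biological replicates were used, and the labels do not say which these libraries are, so a p-value here rests on how far the libraries of a group differ from each other.

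The integrated stress response begins when a kinase phosphorylates the translation factor eIF2α, as Perk (gene Eif2ak3) does when proteins misfold in the endoplasmic reticulum (ER) and Gcn2 (Eif2ak4) does when amino acids run short. General translation then slows while Atf4 is translated more, and Atf4 induces genes for amino acid synthesis, redox balance and, later, cell death. The unfolded protein response adds Ire1α (Ern1), which splices the mRNA of Xbp1, and Atf6, which is cut in the Golgi; both routes induce the chaperones, disulfide enzymes and degradation factors that restore folding in the ER. Proximal tubule cells rely on this folding capacity for the large amount of membrane receptors and transporters they make, and both pathways are known to be engaged in kidney injury.

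Gene counts summed to between 15870155 and 20857618 per library, and fold changes and p-values, the latter adjusted by Benjamini-Hochberg over all genes tested, come from the quasi-likelihood fit of edgeR. Counts of Tgfbr2 cover a whole transcript, exons outside the deleted part included, and were between 6485 and 6895 before normalization in untreated TβRII-/- PT cells against 7032 to 8791 in untreated TβRIIflox/flox PT cells, so they are no check of the deletion. Of 13 proximal tubule markers 5 passed the filter, among them the endocytic receptor Lrp2 with 10901 to 19333 counts per library, whereas Slc34a1, Slc22a6 and Hnf4a, which define the tubule in vivo, had at most 2 counts in any library. The summed proximal tubule markers ranged from 21980 to 27970 normalized counts in untreated TβRIIflox/flox PT cells, from 30850 to 33710 with H2O2, from 15040 to 16070 in untreated TβRII-/- PT cells and from 15850 to 17230 with H2O2. The higher sum of treated TβRIIflox/flox PT cells is that of the water channel Aqp1, with means of 7103 normalized counts untreated and 14611 treated, while Lrp2 (log2 0.03 ± 0.08), Cubn and Slc5a2 did not pass and Ggt1 fell, from 75.8 to 21.2. All 5 were lower in TβRII-/- PT cells in both media, as most chaperones described here were. Markers of leukocytes and of the distal nephron summed to at most 11.8 and 10.9 normalized counts, and the summed 4 mesenchymal markers ranged from 516 to 546, from 244 to 276, from 2356 to 2626 and from 614 to 745 in the same order of groups. Of the 3 mesenchymal markers that were tested, Acta2 was higher in untreated TβRII-/- than in untreated TβRIIflox/flox PT cells (means of 2495 and 469 normalized counts), and Pdgfrb (2.41 and 16.2) and Col1a1 (14.3 and 42.0) were lower. In the same order the 3 endothelial markers summed to between 125 and 138, between 20.7 and 23.3, between 459 and 584 and between 38.5 and 60.7, mostly Kdr, and the 3 podocyte markers, mostly Wt1, to between 159 and 259 over all libraries. The part of these markers in the results was not tested, and fewer cells of a type and less RNA per cell cannot be told apart in bulk RNA.

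Promoters of the arms differed in how often exact matches to known elements were found near the start. Sites with a mismatch or further away were not sought. RefSeq windows of GRCm38.p6, from 250 bases before to 50 bases after each start, were found for 36 of the 39 members, with 40 windows in all, and none for Hyou1, Manf or Atf6. Each was searched on both strands for the ER stress element ERSE (CCAAT, 9 free bases and CCACG), which Atf6 recognizes with NF-Y, for ERSE-II (ATTGG, 1 free base and CCACG), for the element UPRE, TGACGTGG, which Xbp1 and Atf6 bind, and for the C/EBP-ATF element CARE, TGATGNAA, which Atf4 binds with a C/EBP partner. These patterns do not overlap each other in the sites found. ERSE was found in 8 of 15 chaperone windows (53.3%), in 0 of 20 Atf4 arm windows and in 0 of 5 sensor windows, against 39 of 32851 windows of all genes (0.119%). CARE was found in 6 of 20 Atf4 arm windows (30.0%), those of Asns, Atf3, Chac1, Nupr1, Pycr1 and Trib3, in 1 of 15 chaperone windows (6.67%) and in 3.97% of all windows. UPRE was in none of the members' windows and in 0.676% of all. The arms were chosen as genes driven by Atf6 and Xbp1 or by Atf4. The shares of elements that these factors bind are therefore not independent of that choice.

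The ERSE sites are given below because they carry this difference between the arms, each read 5′ to 3′ on the strand that matches the pattern, with the fixed letters in capitals and the 9 free bases in lower case. Each distance is that of the base of the site furthest before the start. For sites on the opposite strand this is the last base shown.
Hspa5, first base 65 before the start: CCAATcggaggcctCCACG
Syvn1, 44 before: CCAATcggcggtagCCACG
Pdia6, 98 before: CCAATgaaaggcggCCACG
Dnajc3, 105 before: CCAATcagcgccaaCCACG
Canx, 145 before: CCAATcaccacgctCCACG
Hsp90b1, 212 before: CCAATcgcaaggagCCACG
Hsp90b1, 107 before, opposite strand: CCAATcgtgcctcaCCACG
Creld2, 126 before, opposite strand: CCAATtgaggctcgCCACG
Calr, 162 before, opposite strand: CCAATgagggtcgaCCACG

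Whole windows are shown for 3 genes, a chaperone, a gene with elements of both kinds and an Atf4 target, with each match in capitals. All are written in the direction of transcription. Hspa5 (chr2:34771840-34772139, + strand, GRCm38.p6) holds the ERSE listed above. Herpud1 (chr8:94386179-94386478, + strand) is the only member with both an ERSE-II, 52 bases before the start, and a CARE, 112 before it, and ERSE-II was in 0.0365% of all windows. Chac1 (chr2:119350992-119351291, + strand) has a CARE on the opposite strand, 193 bases before the start.
Hspa5: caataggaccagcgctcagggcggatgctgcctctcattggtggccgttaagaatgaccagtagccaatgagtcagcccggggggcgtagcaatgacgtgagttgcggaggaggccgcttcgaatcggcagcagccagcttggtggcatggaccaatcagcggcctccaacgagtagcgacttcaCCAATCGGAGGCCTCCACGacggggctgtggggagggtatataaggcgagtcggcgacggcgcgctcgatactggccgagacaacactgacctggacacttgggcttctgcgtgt
Herpud1: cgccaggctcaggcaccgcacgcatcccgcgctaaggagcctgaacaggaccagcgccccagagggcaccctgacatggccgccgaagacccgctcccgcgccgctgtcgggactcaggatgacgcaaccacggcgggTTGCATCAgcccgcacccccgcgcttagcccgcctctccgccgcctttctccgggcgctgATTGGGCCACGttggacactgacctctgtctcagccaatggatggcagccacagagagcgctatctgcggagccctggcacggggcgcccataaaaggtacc
Chac1: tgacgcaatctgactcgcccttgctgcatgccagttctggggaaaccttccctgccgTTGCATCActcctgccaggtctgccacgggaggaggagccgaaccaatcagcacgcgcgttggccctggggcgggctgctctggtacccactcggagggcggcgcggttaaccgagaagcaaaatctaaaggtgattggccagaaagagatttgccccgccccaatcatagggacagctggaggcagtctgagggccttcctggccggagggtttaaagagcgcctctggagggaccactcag
A match of letters is a description and not evidence of binding. Chaperone members with and without ERSE had median log2 fold changes between untreated genotypes of −0.46 (8 genes) and −0.33 (7 genes), ranges −0.93 to 0.26 and −0.96 to 0.16, and with H2O2 of −0.73 and −0.54.

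Scaled by transcript length and library size (RPKM), chaperones were the most abundant members. The lengths are those of GENCODE M39, a later release than the M23 annotation used for counting, so these levels and ranks are approximate. In untreated TβRIIflox/flox PT cells the highest level was that of Calr, the calcium-binding lectin chaperone calreticulin, at 1146 ± 98.6 RPKM (SD, n = 3), followed by Hsp90b1 (527), Pdia3 (336), Canx (291) and Hspa5 (240 ± 16). Atf4 was the most abundant of its arm at 156 ± 11.4, and the pseudokinase Trib3 was lowest of all at 2.89 ± 0.59. In untreated TβRII-/- PT cells Gdf15 stood 4th of 39 against 8th in untreated TβRIIflox/flox PT cells, and Hyou1 16th against 10th. The heat map of all members by library shows the values of every gene.

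**Figure D1:**
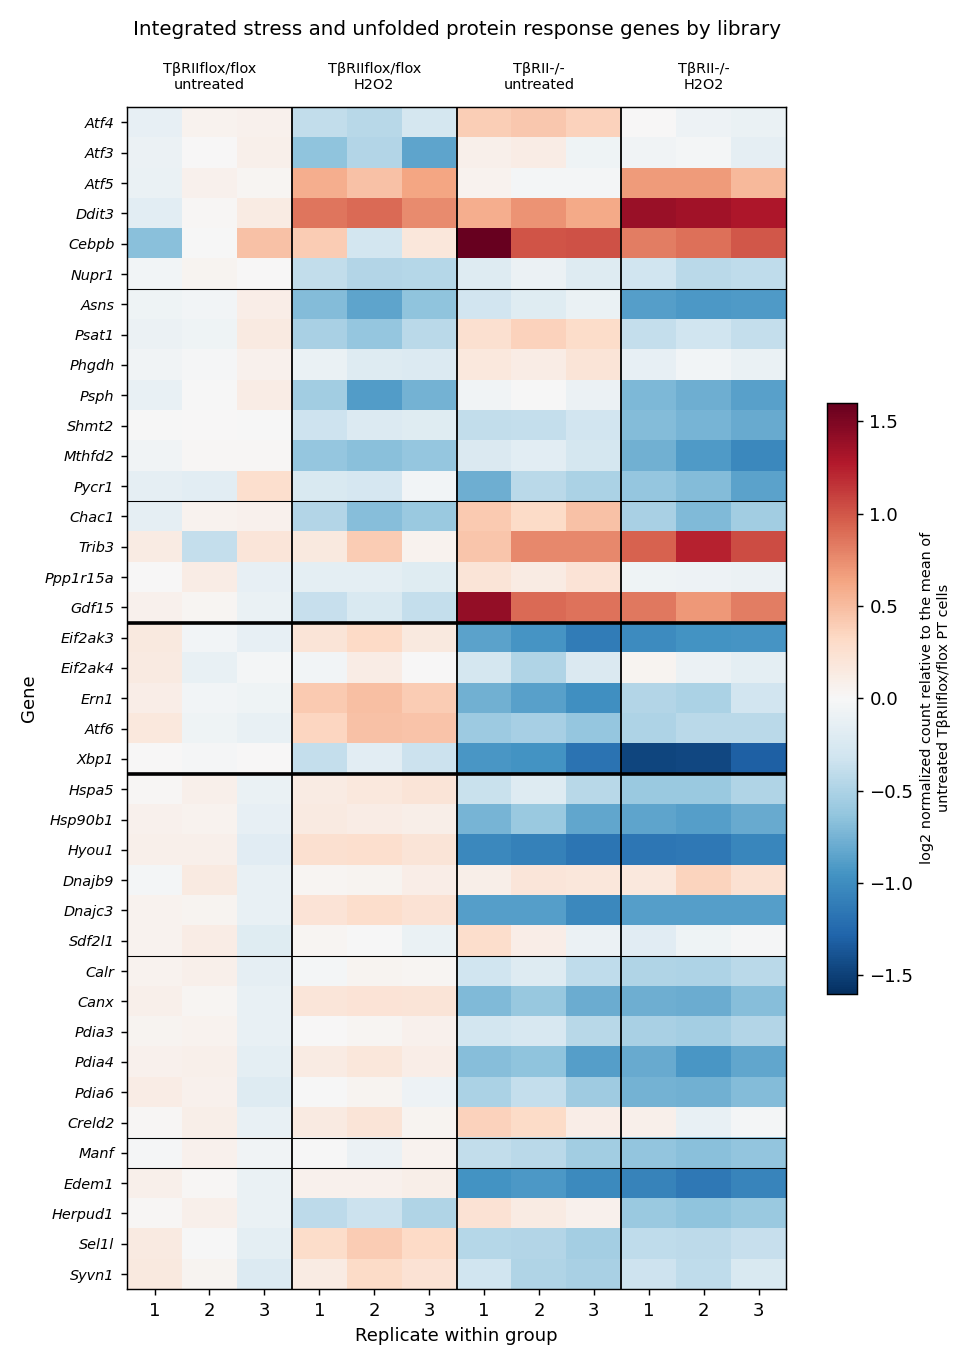
Log2 normalized counts of all 39 members (rows) in the 12 libraries (columns, 3 replicates in each of the 4 groups), relative to the mean of untreated TβRIIflox/flox PT cells; thick lines part the Atf4 arm, the sensors and the chaperone arm, and thin lines part roles within them. Most sensors and chaperones are blue in all 6 TβRII-/- libraries, whereas the amino acid enzymes of the Atf4 arm are blue in the H2O2 libraries of both genotypes.

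The comparison of untreated genotypes asked whether cells without TβRII differ in these pathways before any oxidant is added. The arms went different ways: in the Atf4 arm 9 of 17 members were higher in TβRII-/- PT cells and 5 lower, whereas in the chaperone arm 13 of 17 were lower and 2 higher, and all 5 sensors and factors were lower. Over all genes tested 64.7% passed, 33.3% as higher and 31.4% as lower, against 34 of 39 members, 11 higher and 23 lower. With at least 1.5-fold change, 4 members were higher, all of the Atf4 arm, and 9 lower, 3 sensors or factors and 6 chaperone genes, against 28.0% of all genes, 16.3% higher and 11.8% lower. The limits of the study, an unadjusted p of 0.01 and 1.5-fold, also left 13 members, against 27.0% of all genes. The median log2 fold change was 0.16 in the Atf4 arm, −0.87 in the sensors and −0.46 in the chaperone arm, against 0.008 over all genes tested. The libraries of the 2 genotypes did not overlap for 33 of 39 members, against 65.3% of all genes.

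Among the transcription factors of the Atf4 arm, Atf4 itself, the factor that gives the arm its name, had 5009, 5669 and 5733 normalized counts in untreated TβRIIflox/flox PT cells and 7208, 7363 and 7041 in untreated TβRII-/- PT cells. The 3 TβRII-/- libraries all lay above the 3 TβRIIflox/flox libraries, by 0.40 ± 0.06 on the log2 scale (SE, adjusted p = 1.7e-06). These counts are RNA, and the known control of Atf4 is on its translation, which was not measured. The transcript that stands for Atf4 is annotated as one that retains an intron, and with its highest protein-coding transcript the call was the same. Ddit3, which encodes the pro-apoptotic factor Chop, had 162, 185 and 200 counts in TβRIIflox/flox against 273, 300 and 279 in TβRII-/- PT cells. It was 1.56-fold higher (log2 0.64 ± 0.10, adjusted p = 8.94e-07), again without overlap. Cebpb, a bZIP factor that pairs with Atf4 and Chop, had 64.2, 101 and 141 counts against 405, 205 and 207. The difference was 2.65-fold (log2 1.41 ± 0.21, adjusted p = 8.34e-07), and replicate 1 of untreated TβRII-/- PT cells stood far above the other 2, so that without it the log2 fold change was 1.01 (adjusted p = 1.15e-05). Atf3 and Atf5, the other stress factors of the family, had log2 fold changes of 0.04 ± 0.10 and −0.01 ± 0.07 and did not pass. Nupr1 was lower, at −0.17 ± 0.06 (adjusted p = 0.0184), a call lost in some settings as given below. Its transcript is also annotated as one that retains an intron.

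Gdf15, a secreted cytokine that rises with mitochondrial and ER stress, showed the largest difference among the secreted and feedback products of the arm. It had 2822, 2765 and 2509 counts in untreated TβRIIflox/flox PT cells and 7128, 5077 and 4908 in untreated TβRII-/- PT cells, a 2.11-fold difference (log2 1.08 ± 0.09, adjusted p = 2.7e-12). Replicate 1 of the TβRII-/- PT cells was again the highest, and without it the log2 fold change was 0.89. Trib3, the pseudokinase that dampens Akt and Atf4, was 1.59-fold higher (adjusted p = 0.000178), and Chac1, which degrades glutathione, 1.32-fold higher (adjusted p = 0.000526). Ppp1r15a, which encodes the phosphatase subunit Gadd34 that reverses eIF2α phosphorylation, was higher by 0.19 ± 0.07 on the log2 scale.

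The 7 enzymes of amino acid and one-carbon synthesis were split. Psat1 and Phgdh of the serine pathway were higher, by 0.31 ± 0.06 and 0.16 ± 0.06, and Pycr1, Shmt2, Mthfd2 and Asns were lower, by log2 fold changes of −0.56 ± 0.13, −0.36 ± 0.06, −0.23 ± 0.06 and −0.20 ± 0.06, while Psph was at −0.05 ± 0.08 and did not pass. Pycr1 makes proline, Shmt2 and Mthfd2 carry one-carbon units in mitochondria, and Asns makes asparagine.

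All sensors were lower in untreated TβRII-/- PT cells. Eif2ak3, the gene of Perk, had 3437, 2983 and 2819 counts in TβRIIflox/flox and 1699, 1596 and 1418 in TβRII-/- PT cells, and was 0.510 of its level (log2 −0.97 ± 0.07, adjusted p = 1.2e-13). Xbp1 had 1376, 1351 and 1380 counts against 720, 708 and 602, at 0.494 of its level (log2 −1.02 ± 0.07, adjusted p = 5.14e-14). In both genes the highest TβRII-/- library stood far below the lowest TβRIIflox/flox library. These counts do not separate the spliced from the unspliced form of Xbp1, and so do not measure the activity of Ire1α. The gene of Ire1α, Ern1, had 866, 785 and 769 counts against 472, 443 and 409 (log2 −0.87 ± 0.08, adjusted p = 7.55e-12). Atf6 had 2011, 1700 and 1646 counts against 1189, 1235 and 1160 (log2 −0.58 ± 0.07, adjusted p = 5.14e-09), with no overlap in either gene. Eif2ak4, the amino acid sensor Gcn2, differed least, by −0.33 ± 0.09.

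In the chaperone arm Hspa5, the master ER chaperone BiP, had 20970, 22030 and 19290 counts in untreated TβRIIflox/flox PT cells and 16260, 17940 and 15270 in untreated TβRII-/- PT cells. The groups did not overlap, and the log2 fold change was −0.33 ± 0.07 (adjusted p = 0.000103). Larger differences were found in its partners: Hyou1, the ER chaperone that exchanges the nucleotide of BiP, had 8392, 8404 and 6972 counts against 3882, 3735 and 3530. Hyou1 was at 0.469 of its TβRIIflox/flox level (log2 −1.09 ± 0.07, adjusted p = 1.97e-15), the lowest fold of all members in this comparison. Dnajc3, a J-domain partner of BiP that also inhibits Perk, had 3560, 3535 and 3162 counts against 1859, 1863 and 1677 (log2 −0.93 ± 0.06, adjusted p = 8.68e-15). Edem1, a lectin that directs misfolded glycoproteins to degradation, had 3624, 3475 and 3186 counts against 1769, 1819 and 1697 (log2 −0.96 ± 0.06, adjusted p = 1.77e-15). The levels were 0.526 and 0.514 of those in TβRIIflox/flox PT cells, and no libraries overlapped. The transcript that stands for Edem1 is annotated as a target of nonsense-mediated decay, and with its highest protein-coding transcript the call was the same.

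The disulfide isomerases Pdia4, Pdia6 and Pdia3 were lower by log2 fold changes of −0.73, −0.48 and −0.33, the lectin chaperones Canx and Calr by −0.70 and −0.31, and Hsp90b1, the Hsp90 of the ER, by −0.72 ± 0.07. The degradation factors Sel1l and Syvn1, which form the channel-bound ubiquitin ligase of the ER, were at −0.49 and −0.43, and the secreted factor Manf at −0.46. Against this, Creld2, a disulfide isomerase-like protein, was higher by 0.26 ± 0.07 (adjusted p = 0.0025) and Herpud1, a scaffold of ER degradation, by 0.15 ± 0.06 (adjusted p = 0.0347). Dnajb9 (0.16 ± 0.08) and Sdf2l1 (0.10 ± 0.09), both BiP cofactors, did not pass.

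Of the 34 calls, 5 small ones were lost in some setting, each in the same direction. Herpud1 was at 0.09 (adjusted p = 0.219) without replicate 3 of untreated TβRIIflox/flox PT cells and at 0.10 (0.199) without replicate 1 and 0.15 (0.0564) without replicate 2 of untreated TβRII-/- PT cells, at 0.14 (0.0545) with no filter on low counts and at 0.15 (0.0734) with only the groups compared, Ppp1r15a at 0.12 (0.162) without replicate 3 of untreated TβRIIflox/flox and at 0.17 (0.062) without replicate 3 of untreated TβRII-/- PT cells, Nupr1 at −0.15 (0.066 and 0.0647) without replicate 1 or 3 of untreated TβRII-/- and at −0.10 (0.181) on its protein-coding transcript, Phgdh at 0.13 (0.0623) without replicate 1 of untreated TβRIIflox/flox and at 0.14 (0.0647) without replicate 3 of untreated TβRII-/-, and Asns at −0.15 (0.0576) without replicate 1 of untreated TβRII-/- PT cells.

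**Figure D2:**
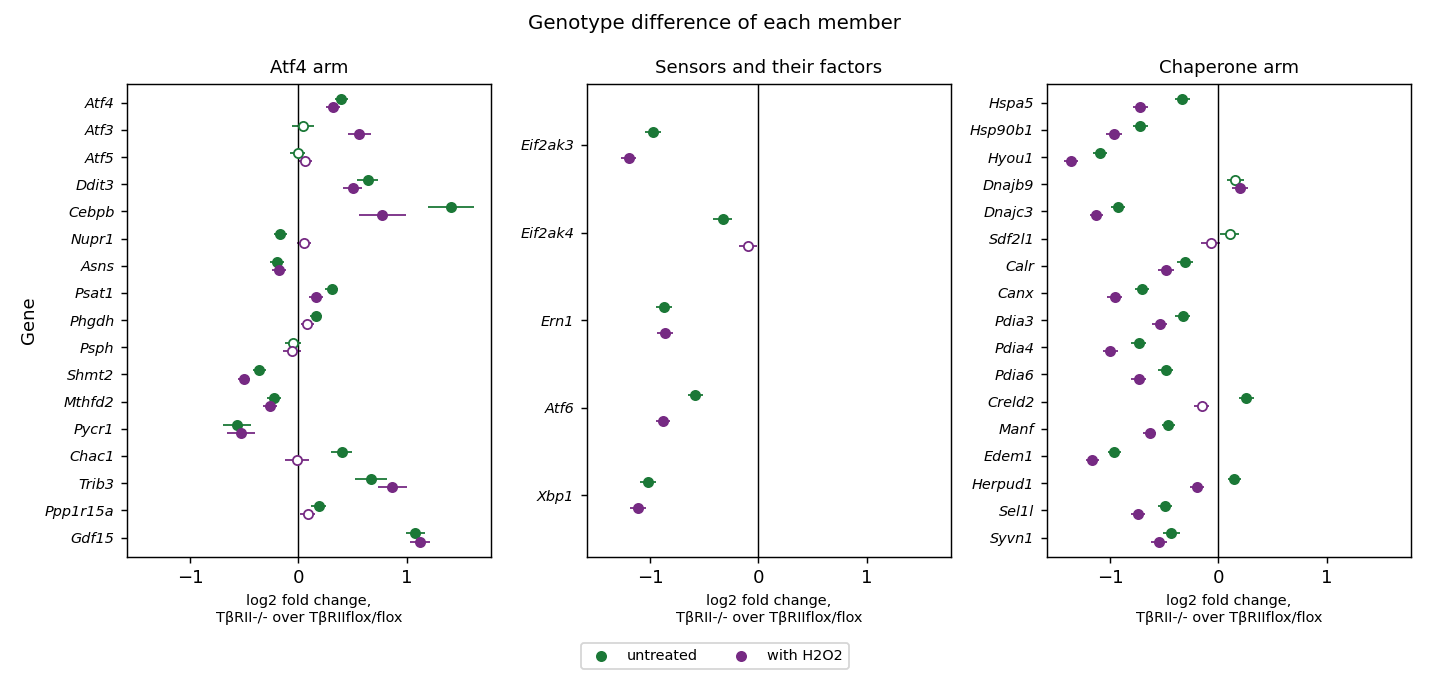
Log2 fold change of each member (y axis) between TβRII-/- and TβRIIflox/flox PT cells (x axis, TβRII-/- over TβRIIflox/flox), untreated in green and with H2O2 in purple, in 3 panels for the Atf4 arm, the sensors and the chaperone arm; bars are standard errors of edgeR's fit to 3 libraries per group, filled points passed an adjusted p of 0.05 and open points did not. In the chaperone panel the purple points of most genes lie further left than the green, down to −1.36 for Hyou1.

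The same comparison was then made between the genotypes under H2O2, in libraries that share none with the untreated ones. In TβRII-/- PT cells 14 of 17 chaperone members were lower and 1, Dnajb9, higher, and 4 of 5 sensors were lower, while 7 of 17 Atf4 arm members were higher and 4 lower. Over all genes tested 66.4% passed, 35.1% as higher and 31.3% as lower, and 30 of 39 members passed. The Atf4 arm passed for 64.7% of its members, near the share of all genes, so its counts show no excess of calls. With at least 1.5-fold change 14 members were lower, 10 of them of the chaperone arm, and 3 higher, against 30.7% of all genes, 13.4% lower and 17.3% higher. At the limits of the study 17 members passed, against 29.8% of all genes. The medians were 0.08 in the Atf4 arm, −0.88 in the sensors and −0.72 in the chaperone arm, against 0.018 over all genes. The libraries did not overlap for 31 of 39 members, against 71.0% of all genes.

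Hyou1 had 9481, 9586 and 9126 counts in H2O2-treated TβRIIflox/flox PT cells and 3549, 3597 and 3839 in H2O2-treated TβRII-/- PT cells, at 0.390 of its level (log2 −1.36 ± 0.07, adjusted p = 6.1e-18). Hspa5 had 22700, 23390 and 23900 against 13800, 13790 and 14860 (log2 −0.72 ± 0.07, adjusted p = 8.78e-11), and the highest TβRII-/- library was far below the lowest TβRIIflox/flox one. Dnajc3 had 3996, 4162 and 3997 against 1850, 1862 and 1863 (log2 −1.12 ± 0.06), and Edem1 3592, 3583 and 3667 against 1634, 1555 and 1649 (log2 −1.16 ± 0.06). The remaining chaperone genes that were lower ranged from 0.874 (Herpud1) down to 0.502 (Pdia4) of their TβRIIflox/flox level, Creld2 was at −0.15 and Sdf2l1 at −0.07 without passing, and Dnajb9 was higher by 0.20 ± 0.07. Herpud1 was the only member of the 39 that passed in opposite directions in the 2 media.

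Among the sensors under H2O2, Eif2ak3 had 3546, 3851 and 3446 counts in TβRIIflox/flox against 1539, 1587 and 1606 in TβRII-/- PT cells (log2 −1.20 ± 0.07, adjusted p = 4.74e-16). Xbp1 had 1055, 1214 and 1078 against 497, 501 and 553 (log2 −1.11 ± 0.07). Atf6 had 2268, 2481 and 2458 against 1271, 1329 and 1321 (log2 −0.88 ± 0.07). The groups of each gene lay far apart. Ern1 had 1082, 1122 and 1072 against 582, 569 and 653 (log2 −0.86 ± 0.07), again without overlap, and Eif2ak4 was at −0.10 ± 0.08 and did not pass.

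In the Atf4 arm under H2O2, Atf4 had 4156, 4024 and 4495 counts in TβRIIflox/flox and 5484, 5192 and 5104 in TβRII-/- PT cells (log2 0.32 ± 0.06, adjusted p = 5.34e-05). Ddit3 had 329, 341 and 308 against 475, 462 and 448 (log2 0.50 ± 0.08, adjusted p = 4.56e-06), so that its highest levels of all groups were those of treated TβRII-/- PT cells. Gdf15 had 2086, 2285 and 2066 against 4864, 4379 and 4763 (log2 1.12 ± 0.09, adjusted p = 1.24e-12), and without overlap. Cebpb had 135, 83.7 and 116 against 181, 189 and 203, 1.71-fold higher (adjusted p = 0.00221). Trib3 was 1.82-fold higher and Atf3 1.48-fold. Shmt2 (−0.50), Pycr1 (−0.53), Mthfd2 (−0.26) and Asns (−0.18) were lower, as they were without H2O2, and Psat1 was higher by 0.16 ± 0.06.

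Counting both media, 21 of 39 members were lower in TβRII-/- PT cells in each, 13 of the chaperone arm, 4 sensors and 4 of the Atf4 arm, against 24.8% of all genes tested, and 6 were higher in each, against 28.3% of all genes, all 6 of the Atf4 arm, namely Atf4, Ddit3, Cebpb, Trib3, Gdf15 and Psat1. Under H2O2 3 of the 30 calls were lost in some setting in the same direction. On counts summed over transcripts Psat1 was at 0.13 (adjusted p = 0.105) and Dnajb9 at 0.16 (adjusted p = 0.109). Psat1 was at 0.13 (adjusted p = 0.133), 0.09 (0.304) and 0.14 (0.118) without replicate 1 or 2 of H2O2-treated TβRIIflox/flox or replicate 2 of H2O2-treated TβRII-/- PT cells, Dnajb9 at 0.15 to 0.19 (0.0557 to 0.126) without any 1 of the 3 H2O2-treated TβRIIflox/flox libraries or replicate 2 of H2O2-treated TβRII-/- PT cells, and Asns at −0.17 (0.0615) without replicate 2 of H2O2-treated TβRII-/- PT cells.

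**Figure D3:**
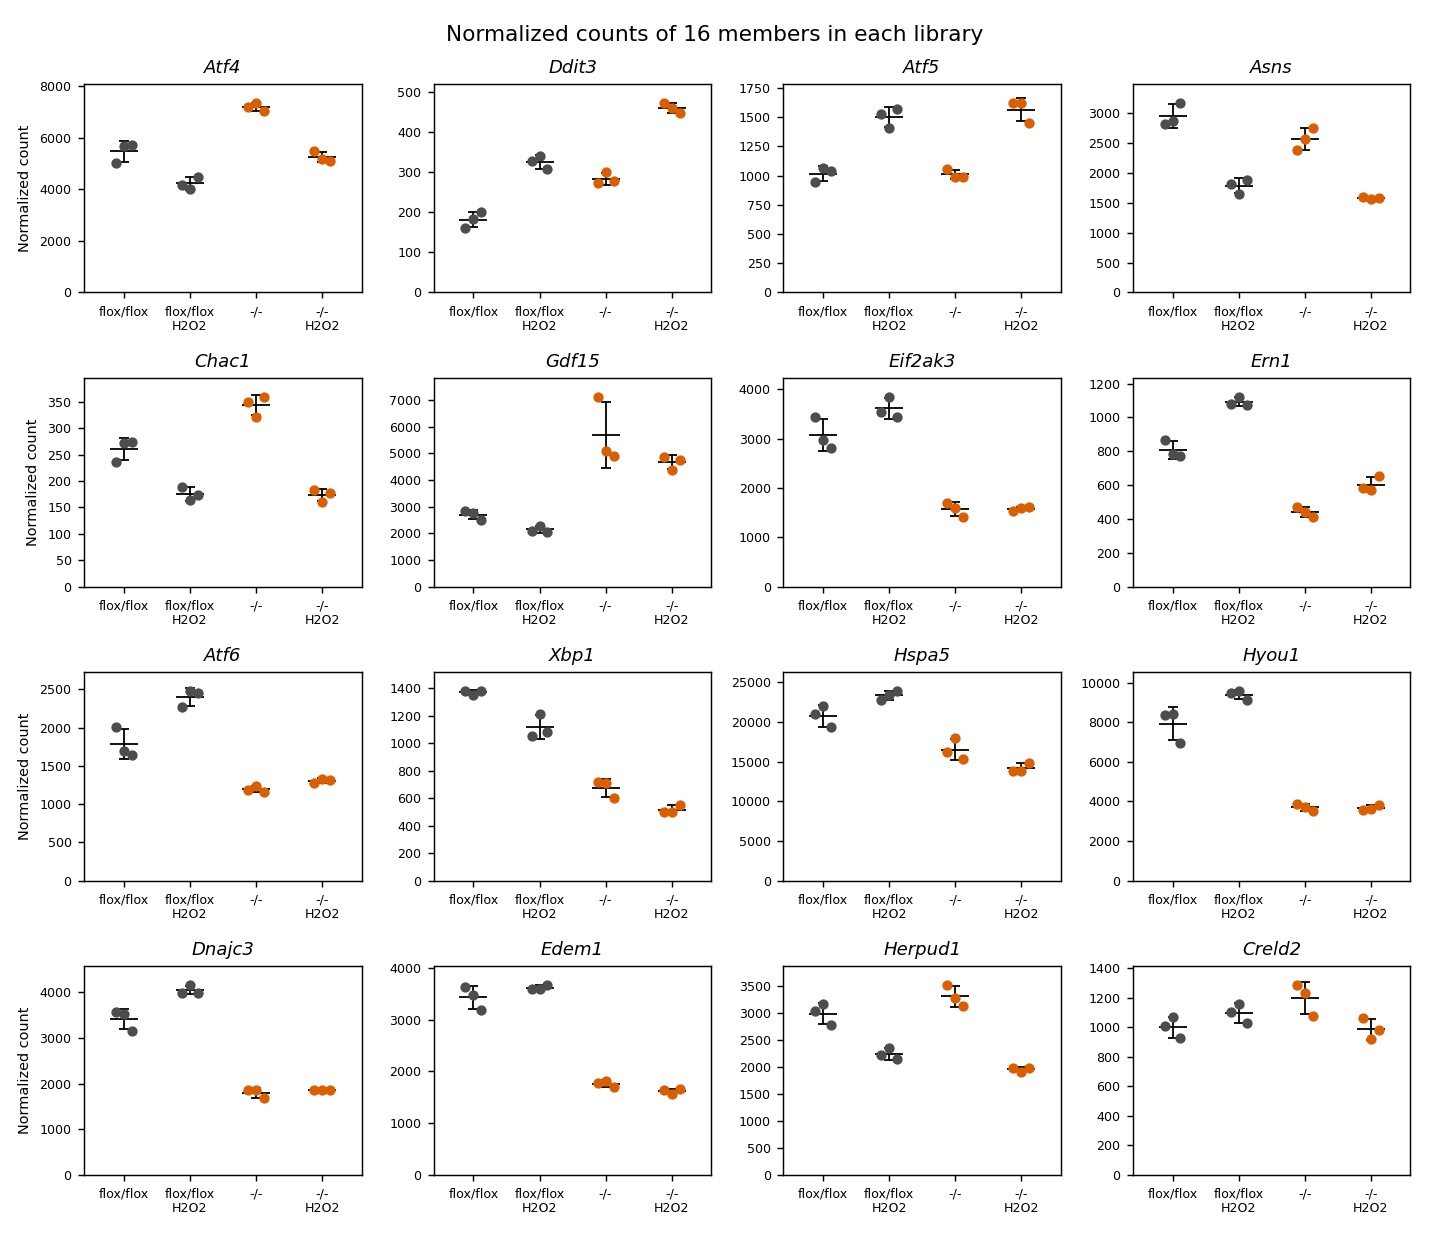
Normalized counts (y axis from 0, one panel per gene) of 16 members in each library, with TβRIIflox/flox PT cells in grey and TβRII-/- PT cells in orange, untreated and with H2O2; points are the 3 libraries of a group, the line is their mean and the bars are 1 SD. Hyou1, Dnajc3, Edem1, Eif2ak3 and Xbp1 are lower in both TβRII-/- groups, and Ddit3 climbs from 162 to 200 counts in untreated TβRIIflox/flox PT cells to between 448 and 475 in treated TβRII-/- PT cells.

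The next comparison asked what H2O2 in serum-free medium did to TβRIIflox/flox PT cells, which still have the receptor. The Atf4 arm mostly fell: 11 of 17 members fell and 2 rose, and the median was −0.33 on the log2 scale, against 0.007 over all genes tested. In the chaperone arm 5 members rose, 1 fell and 11 did not pass, with a median of 0.12, and of the sensors 3 rose and 1 fell. In total 23 of 39 members passed, beside 41.6% of all genes, of which 21.0% rose and 20.5% fell, and by arm 13 of 17 in the Atf4 arm, 4 of 5 sensors and 6 of 17 in the chaperone arm. With the fold limit 5 members passed at 1.5-fold or more, 1 up and 4 down, all of the Atf4 arm, against 8.24% of all genes, 5.68% up and 2.56% down. The limits of the study left 5 members too, against 7.56% of all genes. The treated and untreated libraries did not overlap for 26 of 39 members, against 47.4% of all genes.

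The enzymes of the Atf4 arm fell as a group, 6 of 7, with Pycr1 at −0.18 ± 0.13 and not passing. Asns, given in full after its values were seen, had 2815, 2874 and 3181 counts in untreated and 1825, 1652 and 1890 in treated TβRIIflox/flox PT cells (log2 −0.73 ± 0.06, adjusted p = 1.22e-10). The mean fell to 0.605 of the untreated level and the groups did not overlap. Psph (−0.73 ± 0.08), Mthfd2 (−0.63 ± 0.06), Psat1 (−0.52 ± 0.06), Shmt2 (−0.25 ± 0.06) and Phgdh (−0.17 ± 0.06) fell as well, so that the serine pathway was lower at each of its 3 steps, Phgdh, Psat1 and Psph.

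The transcription factors of the arm split. Atf4 fell from the untreated values given above by 0.37 on the log2 scale (± 0.06, adjusted p = 1.88e-05), and Atf3 and Nupr1, a stress-induced chromatin protein, fell by 0.64 ± 0.11 and 0.44 ± 0.06. Ddit3 rose 1.79-fold (log2 0.84 ± 0.10, adjusted p = 2.4e-08), with treated libraries at 308 to 341 counts and untreated ones at 162 to 200. Atf5, a factor of the mitochondrial stress response, had 942, 1064 and 1038 counts untreated and 1524, 1405 and 1570 treated, and rose 1.48-fold (adjusted p = 3.69e-08); its values were chosen after they were seen. Both genes rose without overlap. Chac1 fell by 0.57 ± 0.11 and Gdf15 by 0.33 ± 0.09 (adjusted p = 0.00398), the latter with an adjusted p of 0.0614 in DESeq2. Cebpb, Trib3 and Ppp1r15a, at 0.13 ± 0.24, 0.22 ± 0.15 and −0.17 ± 0.07, did not pass.

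Of the sensors, Ern1 rose from 769 to 866 counts untreated to between 1072 and 1122 treated (log2 0.44 ± 0.07, adjusted p = 8.07e-06), Atf6 from 1646 to 2011 to between 2268 and 2481 (log2 0.43 ± 0.07, adjusted p = 3.77e-06) and Eif2ak3 by 0.23 ± 0.07 (adjusted p = 0.00722). Xbp1 fell by 0.29 ± 0.07 (adjusted p = 0.000941), from 1351 to 1380 counts to between 1055 and 1214. None of these groups overlapped. Among the chaperones Sel1l (0.34 ± 0.06), Hyou1 (0.25 ± 0.07), Dnajc3 (0.24 ± 0.06), Syvn1 (0.22 ± 0.07) and Canx (0.21 ± 0.07) rose. Hspa5 was at 0.17 ± 0.07 with an adjusted p of 0.0501, Edem1 at 0.08 ± 0.06, and Herpud1 fell by 0.42 ± 0.06 (adjusted p = 2.41e-06).

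Calls of 5 members were lost in some setting, with no change of direction: Gdf15 as given, Eif2ak3 at 0.18 (adjusted p = 0.059) without replicate 2 of H2O2-treated TβRIIflox/flox, Canx at 0.20 (0.0662) with only the groups compared, Canx at 0.15 (0.0616) and Syvn1 at 0.13 (0.146) without replicate 3 of untreated TβRIIflox/flox, Syvn1 at 0.18 (0.0897) without replicate 2 of H2O2-treated TβRIIflox/flox, and Phgdh at −0.14 to −0.15 (0.0717 to 0.0949) without replicate 3 of untreated or replicate 2 or 3 of H2O2-treated TβRIIflox/flox PT cells. The largest rise of a chaperone member was 1.27-fold, for Sel1l.

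**Figure D4:**
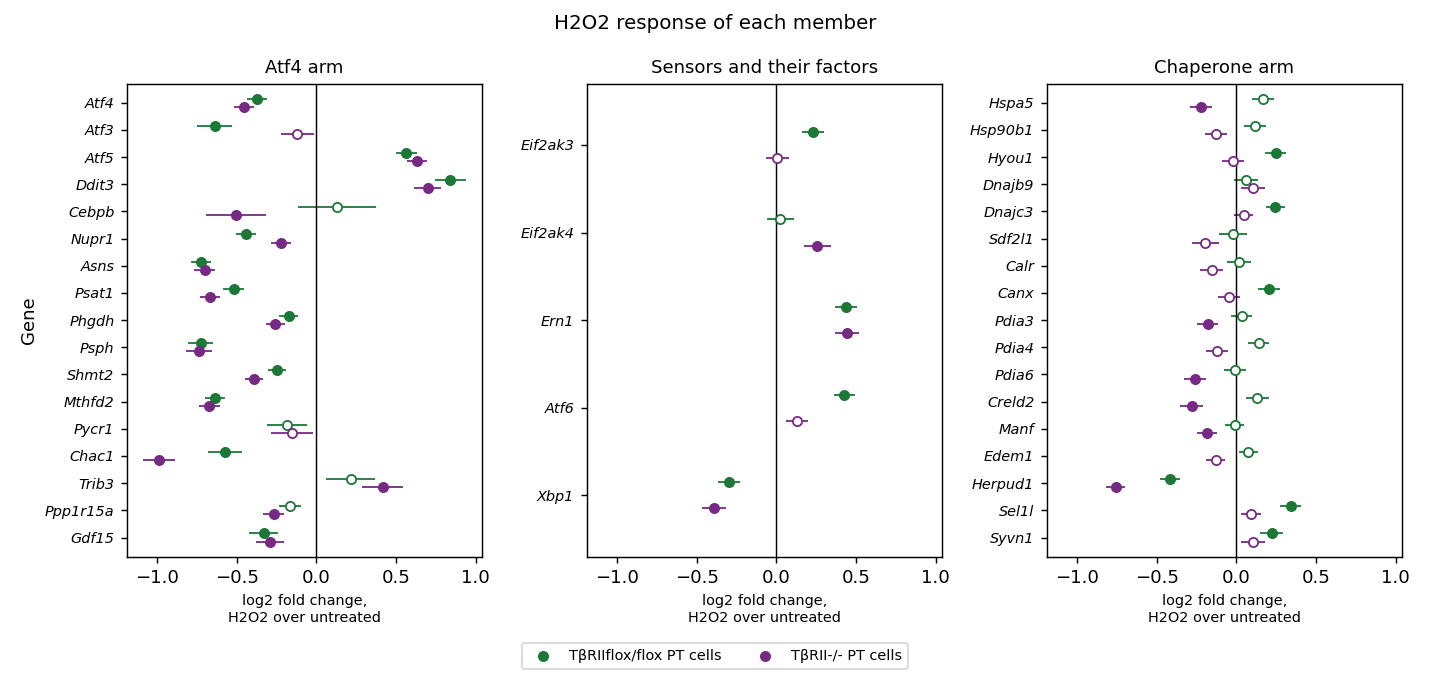
Log2 fold change of each member (y axis) with H2O2 in serum-free medium over untreated cells (x axis), TβRIIflox/flox PT cells in green and TβRII-/- PT cells in purple, in 3 panels for the Atf4 arm, the sensors and the chaperone arm; bars are standard errors of edgeR's fit to 3 libraries per group, and filled points passed an adjusted p of 0.05. The amino acid enzymes lie left of 0 in both genotypes, Atf5 and Ddit3 right of it, and the purple points of most chaperones lie left of the green ones.

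In TβRII-/- PT cells given H2O2 in serum-free medium, the 6 enzymes that fell in TβRIIflox/flox PT cells fell too. In the Atf4 arm 12 of 17 members fell and 3 rose, in the chaperone arm 6 fell and 11 did not pass, and 2 sensors rose and 1 fell. Of all genes tested 39.6% passed, 20.5% upward and 19.1% downward, against 24 of 39 members. With at least 1.5-fold change 2 members rose and 6 fell, beside 8.33% of all genes, 4.56% upward and 3.76% downward. At the limits of the study 8 members passed, against 7.77% of all genes. The medians were −0.29 in the Atf4 arm, 0.13 in the sensors and −0.13 in the chaperone arm, against 0.018. Treated and untreated libraries did not overlap for 28 of 39 members, against 52.1% of all genes.

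Chac1 fell most, and is given in full after its values were seen. It had 349, 322 and 360 counts in untreated and 183, 160 and 178 in treated TβRII-/- PT cells, 0.504 of its level (log2 −0.99 ± 0.10, adjusted p = 1.7e-09). The treated libraries overlapped those of treated TβRIIflox/flox PT cells, which had 189, 163 and 173 counts (genotype difference under H2O2 −0.01 ± 0.11, adjusted p = 0.912). Psph (−0.74 ± 0.08), Asns (−0.70 ± 0.06), Psat1 (−0.67 ± 0.06), Mthfd2 (−0.67 ± 0.06), Shmt2 (−0.39 ± 0.06) and Phgdh (−0.26 ± 0.06) fell, and Pycr1, at −0.15 ± 0.13, did not pass. Asns had 2394, 2574 and 2749 counts untreated and 1607, 1560 and 1582 treated.

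Atf4 fell by 0.45 on the log2 scale (± 0.06, adjusted p = 7.48e-07), and its treated libraries, at 5104 to 5484 counts, were within the range of 5009 to 5733 in untreated TβRIIflox/flox PT cells. Ddit3 rose 1.62-fold (log2 0.70 ± 0.08, adjusted p = 7.46e-08), from 273 to 300 counts to between 448 and 475, and Atf5 1.55-fold (log2 0.63 ± 0.07, adjusted p = 3.19e-09). Ddit3, Atf5 and Ern1 were the 3 members that rose in both lines, and 12 members fell in both, 10 of them of the Atf4 arm with Xbp1 and Herpud1. Of all 12971 genes tested 23.3% passed in the same direction in both lines, 1465 higher and 1551 lower with H2O2. Trib3 rose by 0.42 ± 0.13 (adjusted p = 0.00997). Gdf15 had a log2 fold change of −0.29 ± 0.09 (adjusted p = 0.00874) and Cebpb of −0.51 ± 0.19 (adjusted p = 0.033), but without replicate 1 of untreated TβRII-/- PT cells they were −0.10 (adjusted p = 0.293) and −0.11 (adjusted p = 0.636). Without any 1 of the 3 treated TβRII-/- libraries Cebpb was at −0.47 to −0.55 (adjusted p from 0.0531 to 0.0945), and without treated replicate 2 Gdf15 was at −0.24 (adjusted p = 0.052). With all libraries neither passed in DESeq2 (−0.29, adjusted p = 0.092, and −0.52, adjusted p = 0.248), and Cebpb did not pass on counts summed over transcripts (−0.52, adjusted p = 0.129).

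Ern1 rose by 0.45 ± 0.08 (adjusted p = 2.1e-05), from 409 to 472 counts to between 569 and 653, and stayed below its untreated TβRIIflox/flox level. Xbp1 fell by 0.39 ± 0.08 to between 497 and 553 counts, the lowest of the 4 groups. Eif2ak3 (0.01 ± 0.07) and Atf6 (0.13 ± 0.07) did not pass. In the chaperone arm Herpud1 fell by 0.76 ± 0.06 (adjusted p = 1.9e-11), Creld2 by 0.28 ± 0.07, Pdia6 by 0.26 ± 0.07, Hspa5 by 0.22 ± 0.07 (adjusted p = 0.0115), Pdia3 by 0.18 ± 0.07 and Manf by 0.18 ± 0.06. Hyou1 (−0.02 ± 0.07), Dnajc3 (0.05 ± 0.06) and Edem1 (−0.13 ± 0.06) did not pass.

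Besides Gdf15 and Cebpb, 5 calls of this comparison were lost in the same direction when 1 library was left out. Hspa5 was at −0.16 (adjusted p = 0.12) without replicate 2 of untreated and at −0.20 (0.0565 and 0.0539) without replicate 1 or 2 of H2O2-treated TβRII-/- PT cells, Pdia3 at −0.14 to −0.17 (0.0977 to 0.161) without replicate 1 or 2 of either group, Manf at −0.15 to −0.17 (0.0597 to 0.09) without replicate 1 or 2 of untreated or replicate 2 of H2O2-treated, Trib3 at 0.32 (0.07) without replicate 1 of untreated and at 0.33 (0.079) without replicate 2 of H2O2-treated, and Eif2ak4 at 0.18 (0.127) without replicate 2 of untreated and at 0.20 (0.105) without replicate 1 of H2O2-treated TβRII-/- PT cells. Gdf15 was also at −0.24 (0.052) without replicate 2 of H2O2-treated TβRII-/-, and Cebpb at −0.47 to −0.55 (0.0531 to 0.0945) without any 1 of the 3 H2O2-treated TβRII-/- libraries.

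Whether the genotypes responded differently to H2O2 was tested as an interaction, the response of TβRII-/- minus that of TβRIIflox/flox PT cells. It passed for 5 of 39 members (12.8%), 4 of them negative, beside 10.2% of all genes, 3.90% positive and 6.28% negative, and none of the 5 differed by 1.5-fold, against 2.36% of all genes, 0.640% positive and 1.72% negative. The 12.8% is near the share of all genes, so the count of 5 shows no excess of calls. At an unadjusted p under 0.05 there were 19 members, and DESeq2 gave 9 at an adjusted p of 0.05, the same 5 among them. The share of all genes was not counted for either, so neither count shows an excess among the members. The limits of the study left 0 members in edgeR, against 2.75% of all genes. The chaperone arm held 3 of the 5, Creld2 (−0.41 ± 0.10, adjusted p = 0.00826), Hspa5 (−0.39 ± 0.10, adjusted p = 0.00897) and Herpud1 (−0.34 ± 0.09, adjusted p = 0.0097), and its median interaction was −0.24 against 0.014 over all genes and −0.04 in the Atf4 arm. Hspa5 went from a median of 20970 to 23390 counts with H2O2 in TβRIIflox/flox PT cells and from 16260 to 13800 in TβRII-/- PT cells. Creld2 had 1011, 1068 and 926 counts in untreated and 1102, 1160 and 1030 in treated TβRIIflox/flox PT cells, and 1288, 1234 and 1076 in untreated and 1061, 922 and 981 in treated TβRII-/- PT cells. The order of the genotypes for Creld2 thus turned with H2O2, with overlapping libraries between the treated genotypes. Herpud1 had 3039, 3160 and 2774 and then 2231, 2350 and 2142 counts in TβRIIflox/flox, and 3521, 3277 and 3139 and then 1985, 1915 and 1976 counts in TβRII-/- PT cells, a fall in both lines that was larger in the latter. Herpud1 and Creld2 are given in full after their values were seen, as is Atf3 below.

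The other 2 members were Atf3 (0.52 ± 0.15, adjusted p = 0.024) and Atf6 (−0.30 ± 0.09, adjusted p = 0.0378). Atf3 had 221, 237 and 251 counts in untreated and 151, 170 and 132 in treated TβRIIflox/flox PT cells, against 250, 256 and 225 and 226, 231 and 214 in TβRII-/- PT cells, so that only the treated TβRIIflox/flox libraries stood apart. The Atf3 call was lost without any 1 of 7 libraries, replicates 2 and 3 of untreated and 1 and 3 of H2O2-treated TβRIIflox/flox, replicate 3 of untreated and 1 and 2 of H2O2-treated TβRII-/- PT cells, with an adjusted p of up to 0.112 and log2 differences of 0.41 to 0.52. Atf6 was lost without any 1 of 9 libraries, all but replicate 1 of untreated and replicate 1 of H2O2-treated TβRIIflox/flox and replicate 3 of untreated TβRII-/- PT cells, with an adjusted p of up to 0.107 at −0.28, and on counts summed over transcripts (−0.33, adjusted p = 0.0829). Hspa5 was at −0.32 (adjusted p = 0.0514) without replicate 2 of untreated TβRII-/- PT cells.

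**Figure D5:**
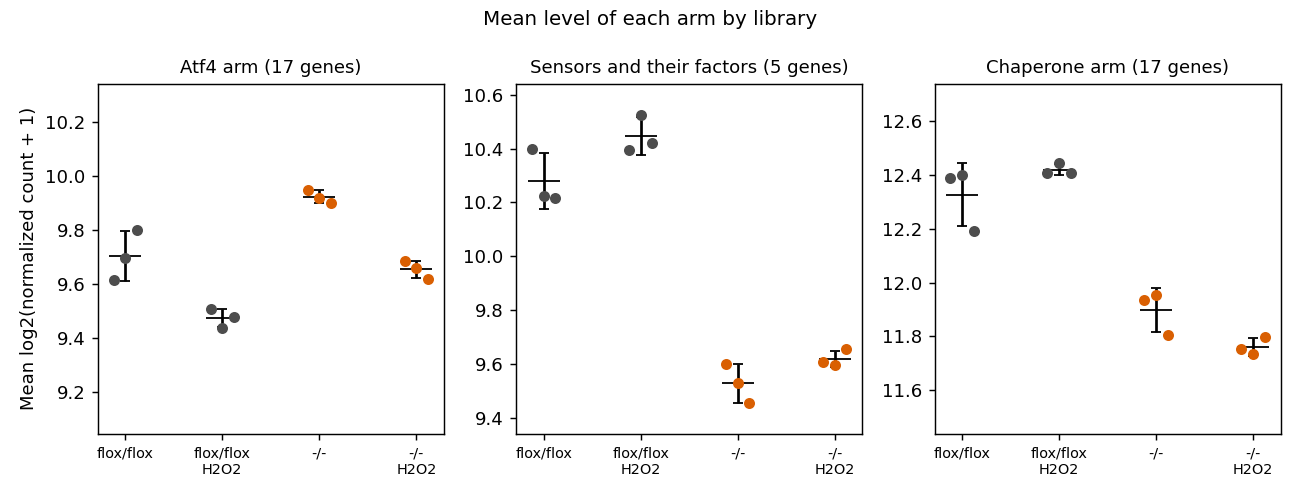
Mean log2(normalized count + 1) over the members of each arm (y axis) in each library, grouped on the x axis as TβRIIflox/flox (flox/flox, grey) and TβRII-/- (-/-, orange) PT cells untreated and with H2O2; points are the 3 libraries of a group, the line is their mean, the bars are 1 SD and each panel spans the same range of log2 units. The chaperone arm lies between 12.19 and 12.44 in the 6 TβRIIflox/flox libraries and between 11.73 and 11.95 in the 6 TβRII-/- libraries.

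Averaged over its members, the Atf4 arm was highest in untreated TβRII-/- PT cells, at 9.92 ± 0.02 log2 normalized counts (SD, n = 3 libraries), then 9.70 ± 0.09 in untreated TβRIIflox/flox, 9.65 ± 0.03 in treated TβRII-/- and 9.47 ± 0.04 in treated TβRIIflox/flox PT cells, the middle groups lying within their spread. The chaperone arm was highest in treated TβRIIflox/flox PT cells, at 12.42 ± 0.02, with 12.33 ± 0.12 in untreated TβRIIflox/flox, 11.90 ± 0.08 in untreated TβRII-/- and 11.76 ± 0.03 in treated TβRII-/- PT cells. The distance between the arms in a library, Atf4 arm minus chaperone arm, was −2.95 ± 0.06 in treated and −2.62 ± 0.20 in untreated TβRIIflox/flox PT cells, and −2.11 ± 0.06 in treated and −1.97 ± 0.07 in untreated TβRII-/- PT cells. All 6 TβRII-/- libraries, at −2.18 to −1.90, were above all 6 TβRIIflox/flox libraries, at −3.01 to −2.39. These are averages over the members tested above and have no test of their own.

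Further genes of the pathways were taken as whole lists. Among 55 tested of 57 further genes of ER translocation, folding and degradation, 39 were lower and 6 higher in untreated TβRII-/- than in untreated TβRIIflox/flox PT cells, 70.9% and 10.9% of the list against 31.4% and 33.3% of all genes, with a median of −0.43. Between the genotypes with H2O2, 40 were lower and 5 higher, 72.7% and 9.09% against 31.3% and 35.1% of all genes, with a median of −0.58. The ER-bound factor Creb3l2, related to Atf6, fell from a mean of 3261 to 911 counts between untreated genotypes (log2 −1.84 ± 0.07) and Crebrf, which destabilizes its relative Creb3, was higher by 0.56 ± 0.09. H2O2 raised 27 of the 55 and lowered 6 in TβRIIflox/flox PT cells, against 9 raised and 15 lowered in TβRII-/- PT cells, where all genes gave 21.0% and 20.5% in the former and 20.5% and 19.1% in the latter, and the interaction passed for 13, 12 of them negative, beside the 6.28% of all genes that were negative. Among 46 further genes of the integrated stress response, 28 passed between untreated genotypes, 60.9% against 64.7% of all genes. Of the list 9 genes were higher and 19 lower, 19.6% and 41.3% against 33.3% and 31.4% of all genes. With H2O2 10 were higher and 22 lower between genotypes, 21.7% and 47.8% against 35.1% and 31.3% of all genes. This wider list thus leaned lower in TβRII-/- PT cells, unlike the Atf4 arm. H2O2 lowered 26 and raised 8 in TβRIIflox/flox and lowered 27 and raised 5 in TβRII-/- PT cells. That is 56.5% and 58.7% lowered against 20.5% and 19.1% of all genes. Slc7a5, the leucine transporter, was lower between untreated genotypes by −1.32 ± 0.07 and Vldlr, a lipoprotein receptor, higher by 2.80 ± 0.07. Fgf21, a secreted hormone induced by Atf4, had means of 19.8 counts in untreated and 98.3 in treated TβRIIflox/flox and of 4.27 and 8.74 in TβRII-/- PT cells, with a log2 response of 2.30 ± 0.28 in the former, and the difference between the responses did not pass (−1.27 ± 0.70, adjusted p = 0.277). Aldh1l2, a mitochondrial folate enzyme, rose with H2O2 in both lines, by 0.97 ± 0.13 and 1.32 ± 0.13, unlike Shmt2 and Mthfd2. Of 14 mitochondrial chaperones and proteases, 6 were higher and 2 lower in untreated TβRII-/- PT cells, 57.1% in all against 64.7% of all genes, with Dnaja3 up by 0.89 ± 0.06, and the median was −0.03.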

How the data were processed

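RNA was sequenced from 12 libraries of PT cells, 3 per group, grouped by the labels' genotype and treatment. The authors aligned reads to GRCm38.p6 (annotation GENCODE M23) with STAR, counted them with featureCounts and deposited whole-number counts without normalization. The methods describe gene counts, whereas those deposited count each transcript separately, and 1 read can add to several. Of 106332 transcripts, 104820 were matched to genes of GENCODE M39, and the rest, 1.22% to 1.28% of the counts, were left out. The transcript with the highest total stood for each of 25514 genes, which sets gene totals at 15870155 to 20857618 per library. Genes that share reads with near-identical copies are uncertain.

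Counts were tested in R 4.3.3 with edgeR 4.0.16 (TMM, filterByExpr, glmQLFit, glmQLFTest) in 1 model with a mean for each group and 8 residual degrees of freedom. P-values are two-sided and adjusted by Benjamini-Hochberg over 12971 genes, and passing means an adjusted p under 0.05. Normalized counts refer to a library of 17351835 counts. Alternatives were DESeq2 1.42.0, its size factors, other filters, a replicate block, sums over transcripts, only the groups compared, the limits of p 0.01 and 1.5-fold, the highest protein-coding transcript (added after the counts were seen) and leaving out each library. The tests were tried on simulated counts. Chi-square per gene between replicates was 3.64 to 12.7, so no library was a copy of another.

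The members and gene lists were chosen with earlier results of these data known. Values in every library are given for Atf4, Ddit3, Atf6, Xbp1, Ern1, Eif2ak3, Hspa5 and members that passed with at least 2-fold change between 2 groups; others given so are named as chosen later. At most 3 rises and 3 falls per further list and comparison could be named. Promoter windows are from RefSeq.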

Additional observations from a re-analysis of the deposited data

Results flagged for a closer look

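The response to H2O2 in serum-free medium differed between TβRII-/- and TβRIIflox/flox PT cells, by edgeR's interaction test with Benjamini-Hochberg adjustment, for 5 of 39 members, 12.8% against 10.2% of all genes tested. The log2 difference between the responses was −0.41 for Creld2 (adjusted p = 0.00826), −0.39 for Hspa5 (adjusted p = 0.00897), −0.34 for Herpud1 (adjusted p = 0.0097), −0.30 for Atf6 (adjusted p = 0.0378) and 0.52 for Atf3 (adjusted p = 0.024). Creld2 and Herpud1 passed in every setting that was run at this threshold, Hspa5 in all but 1, and Atf6 and Atf3 in fewer, with adjusted p-values of up to 0.107 and 0.112 when 1 library was left out. Groups of 3 libraries are too small for a test of single outlying libraries.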

How the results depend on the processing

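No call of a member changed direction in any setting, and 93 of 116 calls passed in every setting at an adjusted p of 0.05. DESeq2 gave 9 members with an interaction against 5 in edgeR, and the share of all genes was not counted for DESeq2. The limits of an unadjusted p of 0.01 and 1.5-fold left 13, 17, 5, 8 and 0 members in edgeR in the order genotype untreated, genotype with H2O2, H2O2 in TβRIIflox/flox, H2O2 in TβRII-/- and interaction. Leaving out each library gave 31 to 35, 27 to 31, 20 to 25, 18 to 26 and 3 to 14 members in that order, with 14 without replicate 1 of untreated TβRIIflox/flox and 3 without replicate 3 of H2O2-treated TβRIIflox/flox, replicate 2 of untreated TβRII-/- or replicate 1 or 2 of H2O2-treated TβRII-/- PT cells. The share of all genes was not counted in the fits without a library, so these counts show no excess among the members. Leaving out a library moved the Atf4 arm medians of the first 4 comparisons to 0.115 to 0.185, 0.037 to 0.094, −0.336 to −0.286 and −0.367 to −0.258, and those of the chaperone arm to −0.543 to −0.412, −0.764 to −0.702, 0.059 to 0.153 and −0.192 to −0.101; the cause was not tested. The replicate block gave 34, 30, 23, 24 and 5 members, as without it, and the share of all genes was not counted with the block. Same-numbered libraries did not deviate together (correlations of −0.083 to 0.054 over 18 pairs, and of −0.092 to 0.104 between differently numbered ones). Whether the numbers mark a shared day is not stated and cannot be told from these correlations. Members of few counts had the widest errors between untreated genotypes, 0.21 for Cebpb, 0.15 for Trib3 and 0.13 for Pycr1. The libraries of Cebpb, at 64.2 to 405 counts, also lay far apart within a group, and the part of each was not tested.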
